A study of Mus musculus with 15 samples.

Results

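The melanocyte pigment genes described here are *Tyr*, *Tyrp1*, *Dct*, *Pmel*, *Mlana*, *Slc45a2*, *Oca2*, *Mitf*, *Sox10* and *Kit*, which are 10 of the 55487 genes in the count table, chosen by symbol. They were measured in 15 skin libraries of 3-week-old mice made with QuantSeq, a method that sequences only the end of each mRNA next to its poly(A) tail. There were 5 libraries from WT mice (Otulin fl/fl littermates without Cre), 5 of unaffected and 5 of affected skin of OTULIN E-KO mice (Otulin fl/fl with K14-Cre), called non-lesional and lesional. All groups therefore carried floxed *Otulin*, all were on a C57BL/6 background, and Cre was driven by the *Krt14* promoter, which is active in keratinocytes and not in melanocytes. Lesions of these mice are focal, and whether a lesional and a non-lesional sample came from the same mouse was not given in the sources used here.

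Melanocytes are pigment cells that derive from the neural crest and, in the hairy skin of mice, reside mainly in hair follicles. SOX10 and MITF are the transcription factors that set up the lineage, KIT is the receptor through which it receives stem cell factor, and the enzymes TYR, TYRP1 and DCT make melanin inside melanosomes, whose fibrils are built from PMEL. Pigment is made while a hair grows, and at rest the follicle holds mainly melanocyte stem cells, which express *Dct* and little of the other enzymes. The members were therefore set beside the hair keratins, the structural proteins of the growing hair shaft.

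The libraries held 1962604 to 2567138 counts, and values are given as CPM (counts scaled to library size with TMM normalization), with SD over libraries. *Otulin* itself was at 12.2 to 28.3 CPM in WT, 21.3 to 30.7 CPM in non-lesional and 19.0 to 27.2 CPM in lesional libraries. This does not check the labels, since whole skin also holds cells without Cre and the place of the deleted part relative to the 3′ reads was not given in the sources used here. Markers of other skin cells were abundant in each library, with summed CPM of 8116 to 11396 in WT and 7532 to 13194 in lesional libraries for 7 keratinocyte genes and of 4140 to 41584 over all groups for 12 skeletal muscle genes. The libraries WT 1, non-lesional 3, lesional 2 and lesional 11 are referred to repeatedly by replicate number because they stood apart in hair or stress keratins as described with those results.

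The promoters of *Dct*, *Tyr* and *Tyrp1* are shown because MITF is known to bind the core CATGTG in the promoters of melanin enzymes. The set of RefSeq promoters (GRCm38.p6) used here held 9 windows for 6 members, *Dct*, *Tyr*, *Tyrp1*, *Oca2*, *Kit* and *Mitf*. It lacked *Pmel*, *Mlana*, *Slc45a2* and *Sox10*, which says nothing about their promoters. The 250 bases before the start are printed for *Dct* (chr14:118052247-118052496, minus strand) and *Tyr* (chr7:87493513-87493762, minus strand), and 30 bases for *Tyrp1* (chr4:80834155-80834184, plus strand). All run 5′ to 3′ along the gene, with CATGTG, or CACATG where it lies on the other strand, in capitals.
Dct: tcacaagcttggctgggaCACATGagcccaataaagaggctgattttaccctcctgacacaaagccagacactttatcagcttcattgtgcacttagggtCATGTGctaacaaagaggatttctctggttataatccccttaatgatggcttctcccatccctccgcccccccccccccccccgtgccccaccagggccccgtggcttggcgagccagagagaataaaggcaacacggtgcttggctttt
Tyr: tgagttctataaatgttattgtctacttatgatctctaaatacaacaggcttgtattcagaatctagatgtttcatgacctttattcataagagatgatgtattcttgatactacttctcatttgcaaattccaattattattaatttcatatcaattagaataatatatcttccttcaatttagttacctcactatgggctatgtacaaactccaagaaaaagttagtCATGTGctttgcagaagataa
Tyrp1: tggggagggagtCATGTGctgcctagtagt

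On either strand, CATGTG was found in 4 of the 9 windows, 1 each of 4 members, and 12.3% of all 32851 promoter windows of 250 bases held it. It began 46 bases before the start of *Tyrp1*, 21 before that of *Tyr*, 150 and 232 before that of *Dct* and 186 before that of *Oca2*, each counted from the RefSeq start. For *Tyrp1* the GENCODE gene starts upstream of the RefSeq start, at 80834123, so that the printed bases lie inside the gene as GENCODE gives it. With a preceding T (TCATGTG, which contains CATGTG) it was found in 3 of the 9 windows, those of *Dct*, *Tyr* and *Tyrp1*, and in 3.25% of all windows. The palindrome CACGTG was in none of the 9 windows and in 6.02% of all windows. These are matches of letters only.

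The melanin enzymes differed more between libraries than between groups. DCT (dopachrome tautomerase; *Dct*, ENSMUSG00000022129, chr14:118012790-118052244) was at 48.7, 135, 122, 126 and 97.0 CPM in the WT libraries (replicates 1, 4, 7, 10 and 13). It was at 73.9, 118, 142, 134 and 95.4 CPM in the non-lesional libraries (replicates 3, 6, 9, 12 and 15). In the lesional libraries (replicates 2, 5, 8, 11 and 14) *Dct* was at 42.5, 127, 125, 32.3 and 148 CPM. WT 1, non-lesional 3 and lesional 11 were the lowest of their groups, lesional 2 was next to lesional 11, and the groups overlapped, with means of 106 ± 34.8, 113 ± 28.1 and 95.0 ± 53.4 CPM (SD, n = 5 each).

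TYRP1 stabilises tyrosinase and acts late in eumelanin synthesis (*Tyrp1*, ENSMUSG00000005994, chr4:80834123-80851719). *Tyrp1* was at 0.773, 6.56, 8.97, 3.38 and 6.39 CPM in WT and 1.78, 3.83, 5.77, 8.41 and 4.38 CPM in non-lesional libraries. In lesional libraries *Tyrp1* was at 2.26, 6.16, 6.81, 0 and 5.35 CPM. The lowest libraries of each group were the same as for *Dct*, and these values rest on 0 to 21 counts per library. Over the 15 libraries log2 CPM of *Tyrp1* and *Dct* had a Pearson r of 0.88 and a Spearman rho of 0.63, the highest r among the 21 pairs of the 7 members with enough counts.

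Tyrosinase, the enzyme that starts melanin synthesis (*Tyr*, ENSMUSG00000004651, chr7:87424771-87493512), was barely counted, at 0 to 4 counts per library and a sum of 35 counts. The means of *Tyr* were 0.916 ± 0.359, 1.005 ± 0.551 and 1.12 ± 0.736 CPM in WT, non-lesional and lesional libraries (SD, n = 5 each). *Slc45a2*, a melanosomal transporter (ENSMUSG00000022243, chr15:11000721-11029233), was at 0 to 4 counts with 21 counts in all and was at 0 in 6 libraries. *Oca2*, a melanosomal chloride channel (ENSMUSG00000030450, chr7:56239760-56536518), had 0 counts in all 15 libraries, which allows a mean level of up to 0.0867 CPM (3 counts over all libraries, counting error only). Differences between groups in these 3 genes were not detectable at this depth.

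PMEL forms the fibrils of the melanosome (*Pmel*, ENSMUSG00000025359, chr10:128704195-128720238). *Pmel* was at 57.2, 62.1, 95.1, 102 and 121 CPM in WT libraries. It was at 56.6, 82.1, 82.5, 79.3 and 100.2 CPM in non-lesional and 57.9, 79.1, 77.3, 73.1 and 108 CPM in lesional libraries. WT 1, non-lesional 3 and lesional 2 were the lowest of their groups, and lesional 11, the lowest in *Dct*, was not.

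The counts of *Pmel* cannot be told apart from those of a neighbour with certainty. In the GENCODE annotation the last exon of *Pmel* (chr10:128719885-128720238, plus strand) overlaps by 105 bases the last exon of *Dgka* (chr10:128720134-128720506, minus strand), a diacylglycerol kinase gene that converges on *Pmel*. The counting assigned a read to every gene it overlapped by at least 20 bases, and the parameters listed for it hold no strand option, without which featureCounts ignores strand. *Dgka* was at 77.7 to 175 CPM, and of 13461 genes it was the one whose log2 CPM was most like that of *Pmel* over the 15 libraries, with a Pearson r of 0.97, a Spearman rho of 0.98 and an r of 0.98 within groups. The ratio of *Pmel* to *Dgka* CPM ran only from 0.608 to 0.760, whereas the ratio of *Pmel* to *Dct* CPM ran from 0.461 to 2.26. How many of the counts of *Pmel* come from *Dgka* transcripts was not tested. A second overlap, of 34 bases with *Cdk2*, was not accompanied by such a likeness, with an r of -0.14. No other member shared 20 or more exonic bases with another gene.

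**Figure D1:**
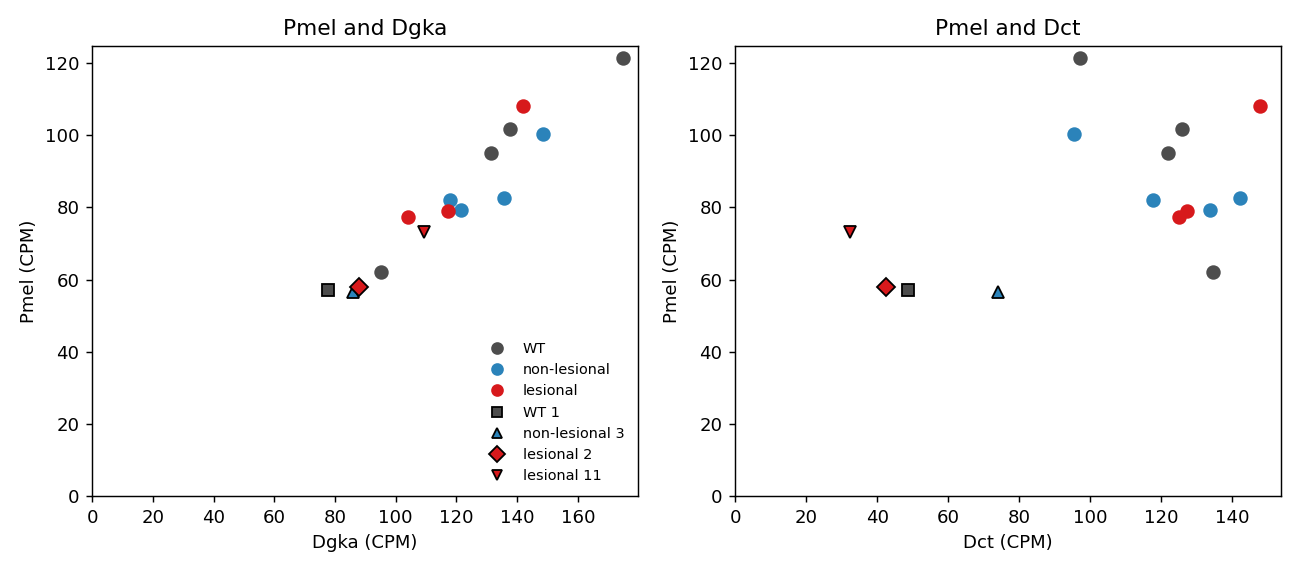
*Pmel* against *Dgka* (left) and against *Dct* (right) in CPM, 1 point per library, coloured by group, with WT 1, non-lesional 3, lesional 2 and lesional 11 as separate symbols. The points lie along a line with *Dgka*, at *Pmel* to *Dgka* ratios of 0.608 to 0.760, and scatter widely with *Dct*.

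*Mlana*, a melanosomal protein gene also known as MART-1 (ENSMUSG00000024806, chr19:29697824-29708634), was counted 4 to 12 times per library. *Mlana* was at 1.93, 2.19, 1.79, 1.69 and 2.26 CPM in WT and 1.78, 5.10, 4.95, 3.20 and 4.38 CPM in non-lesional libraries. In lesional libraries *Mlana* was at 2.26, 3.08, 4.80, 3.48 and 5.35 CPM. All lesional libraries lay above all WT libraries, the lowest of them by less than 1 count's worth, and 4 of 5 non-lesional libraries did so too. Of 27027 genes with a count in these groups, 0.322% had every lesional library above every WT library.

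The means of *Mlana* were 1.97 ± 0.245, 3.88 ± 1.39 and 3.80 ± 1.26 CPM (SD, n = 5 each), and the summed counts were 24, 46 and 41. The exact two-sided permutation test over all regroupings of the libraries gave p = 0.0397 for non-lesional and p = 0.00794 for lesional against WT, the latter being the smallest p that 5 against 5 libraries allow. These p-values are unadjusted, among 27 such tests of members. The test regroups libraries freely and takes no account of the sets of consecutive replicate numbers described below. *Mlana* did not pass the filter on low counts in the main fit of any of the 3 comparisons. It passed in the fit of all 15 libraries, where 0 members were called. Without that filter, edgeR's quasi-likelihood test gave log2 fold changes of 0.96 (SE 0.49) and 0.93 (SE 0.51), with Benjamini-Hochberg adjusted p of 0.747 and 0.721 over all genes, so the difference was not called.

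The lineage transcription factors were counted in every library. SOX10 drives *Mitf* expression and is also made by Schwann cells (*Sox10*, ENSMUSG00000033006, chr15:79154908-79165240). *Sox10* was at 27.5, 32.4, 29.6, 27.9 and 24.1 CPM in WT and 23.6, 25.5, 22.3, 26.4 and 28.9 CPM in non-lesional libraries. In lesional libraries it was at 14.5, 22.1, 27.6, 14.4 and 27.2 CPM. Lesional 2 and 11 were the lowest of all 15, lesional 5 lay just below the lowest non-lesional library, and the others lay within the range of the other groups. The 12 genes of the Schwann cell list summed to 765 to 1054 CPM in WT, 1073 to 1238 in non-lesional and 405 to 1103 in lesional libraries. Lesional 11 and 2 were the lowest of all 15 in these genes too, at 405 and 616 CPM. Their part in the level of *Sox10* was not tested.

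MITF, the master regulator of the melanin enzymes, is also expressed in several other cell types (*Mitf*, ENSMUSG00000035158, chr6:97807052-98021349). *Mitf* was at 59.5, 50.7, 56.1, 54.1 and 68.1 CPM in WT and 57.9, 47.6, 56.9, 51.7 and 61.7 CPM in non-lesional libraries. In lesional libraries it was at 56.1, 53.4, 62.1, 21.4 and 82.2 CPM, so that lesional 11 was the lowest and lesional 14 the highest of all. The same library, lesional 11, had the lowest summed muscle level at 4140 CPM, against 18388 to 32536 CPM in non-lesional libraries, and the lowest Schwann cell level. Unlike *Dct*, *Mitf* was not low in WT 1, non-lesional 3 or lesional 2.

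*Kit* (ENSMUSG00000005672, chr5:75574916-75656722) encodes the receptor for stem cell factor and is shared with mast cells. Its means were 10.1 ± 2.74, 12.6 ± 4.39 and 11.3 ± 4.98 CPM in WT, non-lesional and lesional libraries (SD, n = 5 each), from 14 to 40 counts per library. *Kit* was at 7.18 to 12.8 CPM in WT, 7.21 to 17.5 CPM in non-lesional and 6.81 to 19.0 CPM in lesional libraries, and 3 of 5 non-lesional libraries lay above every WT library. The 11 mast cell genes, led by *Cpa3* and *Mcpt4*, summed to 95.4 to 291 CPM in WT, 103 to 175 in non-lesional and 121 to 233 in lesional libraries.

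**Figure D2:**
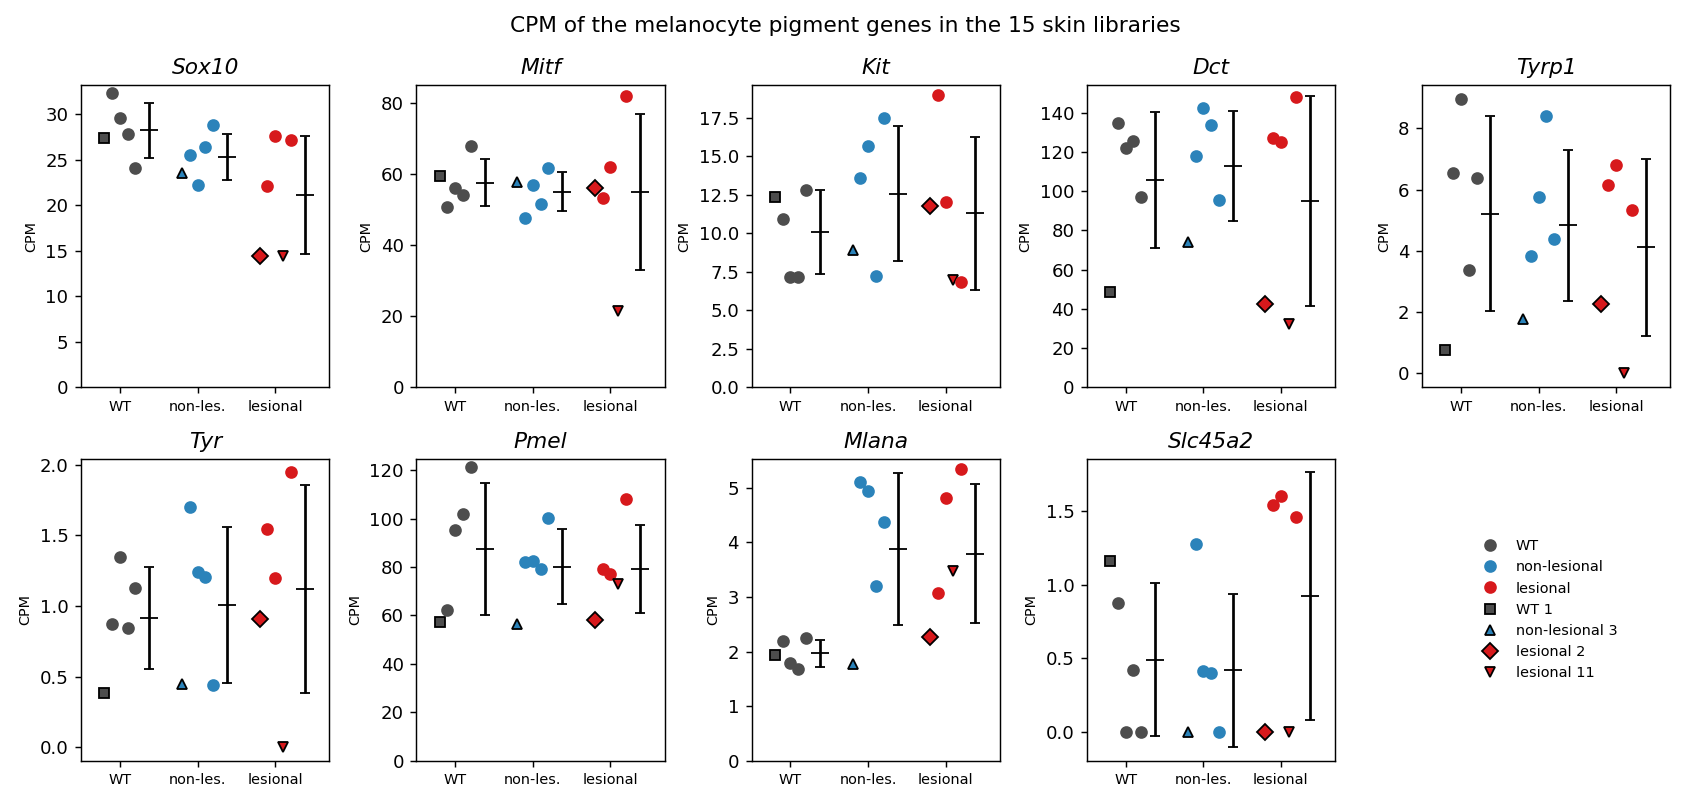
CPM of 9 members in each library by group, with the mean and SD beside each group (n = 5); *Oca2*, at 0 in all, is left out. *Dct* and *Tyrp1* were lowest in the 4 libraries with separate symbols, and the groups overlapped for every member but *Mlana* between lesional and WT libraries.

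No member was called different between groups. In the comparison of non-lesional with WT skin, which addresses OTULIN loss in keratinocytes in skin without visible lesions, 6 members passed the filter (*Tyrp1*, *Dct*, *Pmel*, *Mitf*, *Sox10* and *Kit*) and 0 had an adjusted p under 0.05 by edgeR's quasi-likelihood test. Of all 13021 genes tested, 0% were called. At an unadjusted p under 0.05 there were 0 members, against 3.16% of all genes, but 1 of 7 members in the fit of all 15 libraries. DESeq2 and limma called 0 members too. The largest difference was that of *Kit*, a log2 fold change of 0.31 (SE 0.27), and *Dct* differed by 0.10 (SE 0.26). The median over the 6 members was -0.07, beside -0.00 over all genes.

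In the comparison of lesional with WT skin, 0 of 6 members were called by edgeR, DESeq2 or limma, and 0% of 12918 genes by edgeR. At an unadjusted p under 0.05 there were 0 members, against 4.81% of all genes, but 2 of 7 members in the fit of all 15 libraries. *Sox10* had the largest difference, a log2 fold change of -0.41 (SE 0.21, edgeR adjusted p = 0.926), and an exact permutation p of 0.0556. *Tyrp1* differed by -0.31 (SE 0.63) and *Dct* by -0.15 (SE 0.41), so that their errors exceeded the differences. The median was -0.15 over the 6 members. Without lesional 2 and 11 it was 0.21, and *Dct* then differed by 0.33 (SE 0.25) and *Tyrp1* by 0.24 (SE 0.50), again with 0 members called.

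Lesional and non-lesional skin, which address what differs within OTULIN E-KO skin, gave 0 of 6 members called by edgeR, DESeq2 or limma, and 0% of 12864 genes by edgeR. At an unadjusted p under 0.05 there were 0 members, against 4.22% of all genes. *Sox10* differed by -0.25 (SE 0.21), *Dct* by -0.24 (SE 0.40), *Tyrp1* by -0.22 (SE 0.57) and *Mitf* by 0.00 (SE 0.25) on the log2 scale. The median was -0.19 over the 6 members. Without lesional 2 and 11 it was 0.19 over 7 members, since *Mlana* then passed the filter. The comparisons share libraries, so their values are not independent of each other.

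**Figure D3:**
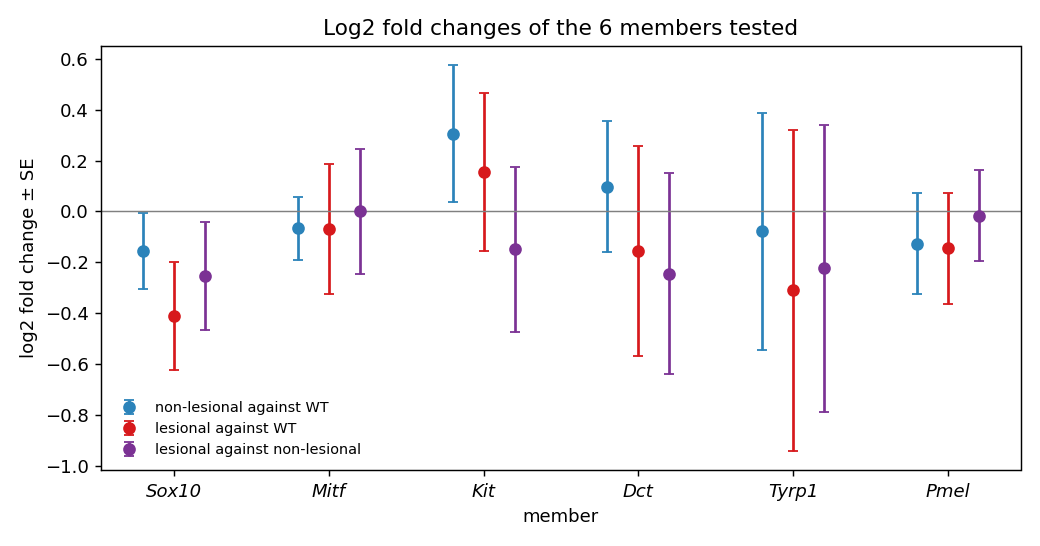
Log2 fold changes with SE (edgeR) of the 6 members tested, in the 3 comparisons between groups (n = 5 per group). Most bars cross 0, those of *Sox10* lie below it, that of *Kit* between non-lesional and WT libraries lies above it, and no member was called in any comparison.

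Other pigment genes were not called either. A list of 36 further genes of melanocyte signalling, melanosome biogenesis and transport had 35 genes in the table by symbol, of which 25 were tested and 0 called in each comparison. At an unadjusted p under 0.05, edgeR gave 1 of 25 higher in non-lesional than WT, beside 1.85% of all genes, and 2 lower in lesional than WT, beside 1.56% of all genes. It gave 0 between lesional and non-lesional libraries. The 2 lower in lesional libraries were *Rab27a*, which links melanosomes to their actin motor, at -0.65 (SE 0.27), and *Ednrb*, the receptor for endothelin 3 that melanoblasts need, at -0.49 (SE 0.21). *Rab38* and *Rab32*, which carry melanin enzymes to melanosomes, differed by 0.29 (SE 0.50) and -0.04 (SE 0.25) between lesional and WT libraries. The median over the 25 was -0.02, 0.06 and 0.04 in the 3 comparisons, in the order given above. The 10 genes not tested between lesional and WT libraries reached at most 60 counts in a library.

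The hair keratins were low in all libraries but 1. The 15 of 16 hair shaft keratins found by symbol summed to 244, 38.0, 28.3, 32.5 and 45.1 CPM in WT libraries. They summed to 20.9, 23.8, 27.2, 25.2 and 31.5 CPM in non-lesional and 24.9, 33.4, 20.02, 7.96 and 35.0 CPM in lesional libraries. In the 14 libraries other than WT 1, *Krt32*, a hair cuticle keratin, made up 18.7% to 92.1% of this sum, with a median of 73.3%. WT 1 held 32.1 CPM of *Krt32* and 212 CPM of the other hair keratins, and its inner root sheath genes, *Tchh* and 8 keratins, summed to 1283 CPM against 28.3 to 156 CPM in the other WT libraries. The library with the highest hair keratin level was thus among those with the lowest *Dct* and *Tyrp1*, at 48.7 and 0.773 CPM.

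The question whether the members follow the hair keratins was put to a fit over all 15 libraries with the group as a covariate, in which a slope is the change in log2 CPM per unit of log2 summed hair keratin CPM. Of 7 members tested (*Mlana* passed this filter), 0 were called by edgeR, DESeq2 or limma, and 0.00743% of 13461 genes were, which is 1 gene, *Car6*, named after its value was seen. At an unadjusted p under 0.05, edgeR gave 0 members and 8.47% of all genes. The slopes were -0.05 (SE 0.27) for *Dct*, -0.25 (SE 0.38) for *Tyrp1*, -0.09 (SE 0.12) for *Pmel*, 0.07 (SE 0.10) for *Sox10*, 0.24 (SE 0.12) for *Mitf* and 0.28 (SE 0.16) for *Kit*. The median slope of the 7 members was 0.07, beside -0.00 over all genes.

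These slopes rest on single libraries. Without WT 1 the slope of *Mitf* was 0.71 (SE 0.15, edgeR adjusted p = 0.0177), and 786 genes were called. Without lesional 11, which was lowest in both *Mitf* and hair keratins, the slope of *Mitf* was 0.06 (SE 0.08, edgeR adjusted p = 0.976). Over all 15 libraries, *Mitf* and the hair keratin level had a Pearson r of 0.52 (permutation p = 0.0818) and a Spearman rho of 0.33 (permutation p = 0.235), and r was 0.31 without these 2 libraries. For *Dct*, r was 0.03 (permutation p = 0.905), rho 0.31 (permutation p = 0.262) and r without the 2 libraries 0.25. The r of the other 5 members ran from -0.32 to 0.45, the smallest p of these 7 unadjusted permutation tests of r was that of *Mitf*, and within groups r was -0.04 for *Dct* and 0.53 for *Mitf*.

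With the inner root sheath level in place of the hair shaft keratins, *Dct* had a slope of -0.32 (SE 0.10) and *Tyrp1* of -0.46 (SE 0.19). These were the 2 members of 7 with an unadjusted p under 0.05, both lower, against 4.23% of all genes. In WT 1 this level held 2488 counts of *Tchh* and 317 of *Krt25*, whereas in lesional 11 it held 207 counts of *Tchh* and 0 of *Krt25*. Neither member was called (edgeR adjusted p = 0.464 and 0.550), nor was any other, and 0.0817% of 13461 genes were called. Among the other pigment genes, *Bloc1s4*, *Rab38* and *Rab32* had the lowest p on the hair keratin level, with slopes of -0.31 (SE 0.10), -0.52 (SE 0.20) and -0.27 (SE 0.11), and 0 of 25 were called.

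The 4 lowest values of *Dct* were in the 4 libraries with the most stress keratins. This was noticed after the values were seen, so no test is given. Of these 4, WT 1, lesional 2 and non-lesional 3 carry consecutive numbers. The numbers run in 5 sets of 3, with 1 library of each group in a set, and the deviations of libraries of a set from their group means over 13461 genes had a Pearson r of 0.12 to 0.27 between WT and non-lesional libraries and of 0.11 to 0.35 between non-lesional and lesional libraries. Between WT and lesional libraries r was 0.27 for WT 1 and lesional 2 but ran down to -0.093, and only 2 of 5 sets correlated best within the set. What a set shares was not given in the sources used here, so the part of the set and that of the stress keratins cannot be told apart in these 3 libraries. *Krt6a*, *Krt6b* and *Krt16*, which keratinocytes make on wounding and in inflamed epidermis, and the calgranulins *S100a8* and *S100a9* summed to 1298, 486, 429, 276 and 405 CPM in WT libraries. They summed to 1176, 352, 319, 322 and 390 CPM in non-lesional and 12359, 342, 245, 31876 and 429 CPM in lesional libraries. Lesional 11 and lesional 2 were thus far above the rest, WT 1 and non-lesional 3 came next, and the other 3 lesional libraries lay within the range of the WT libraries or below it. The sums were not alike in makeup. In WT 1, *Krt6a* made up 1185 CPM, with 90.9 CPM of *Krt16*, 17.0 CPM of *Krt6b*, 1.55 CPM of *S100a8* and 3.87 CPM of *S100a9*. The WT medians were 12.2 CPM of *Krt16* and 1.88 CPM of *Krt6b*. In WT 1 *S100a8* lay within the WT range of 1.31 to 3.76 CPM, and *S100a9* was the highest of the WT libraries, beside a median of 1.35 CPM. In non-lesional 3, *Krt6a* was at 639, *Krt16* at 98.0, *Krt6b* at 220, *S100a8* at 116 and *S100a9* at 102 CPM, so that *Krt16* was at a like level in both libraries. *Krt6a* is also made in the hair follicle, and WT 1 was the library with high hair and inner root sheath keratins. Which cells the *Krt6a* of WT 1 came from was not tested.

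Within each group the library highest in stress keratins was the lowest in *Dct*, at 48.7 CPM in WT 1 against 97.0 to 135 CPM in the other WT libraries. Non-lesional 3 was at 73.9 CPM of *Dct* against 95.4 to 142 CPM, and lesional 11 at 32.3 CPM against 42.5 to 148 CPM. *Tyrp1* showed the same order, at 0.773 CPM in WT 1 against 3.38 to 8.97 CPM, at 1.78 CPM in non-lesional 3 against 3.83 to 8.41 CPM, and at 0 CPM in lesional 11 against 2.26 to 6.81 CPM. Outside these 4 libraries no library had less than 95.4 CPM of *Dct* or 3.38 CPM of *Tyrp1*. *Mitf* did not share this order in WT 1 and non-lesional 3, at 59.5 and 57.9 CPM, which only 1 library of each group exceeded.

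The slope on the log2 stress keratin level, in a fit with the group as a covariate, was -0.33 (SE 0.04) for *Dct* and -0.52 (SE 0.13) for *Tyrp1*. These slopes describe the values from which the level was chosen and are no test. The slope was -0.12 (SE 0.04) for both *Sox10* and *Mitf*. For *Pmel* it was -0.09 (SE 0.04), for *Mlana* -0.11 (SE 0.08) and for *Kit* -0.07 (SE 0.07), and the median over all genes was -0.00. Slopes as low as that of *Sox10* or *Mitf* were found in 13.2% of all genes and as low as that of *Mlana* in 14.5%. Those as low as that of *Pmel* were found in 19.2% and as low as that of *Kit* in 24.6%. With the set as a block the slope was -0.28 (SE 0.05) for *Dct*, -0.35 (SE 0.17) for *Tyrp1*, -0.18 (SE 0.04) for *Mitf* and -0.13 (SE 0.05) for *Sox10*. Without lesional 2 and 11 the slope was -0.47 (SE 0.11) for *Dct* and -0.91 (SE 0.31) for *Tyrp1*, but -0.02 (SE 0.10) for *Sox10* and 0.07 (SE 0.09) for *Mitf*, so that the slopes of the latter pair rest on these 2 libraries. CPM are shares of all counts, so in bulk skin fewer melanocytes, less RNA per melanocyte and more RNA of other cells cannot be told apart. Lesional 11 was also the lowest in muscle and Schwann cell genes, at 4140 and 405 CPM, and lesional 2 was next, at 18179 and 616 CPM. With these levels as a second covariate the slope of *Dct* was -0.33 (SE 0.06) for muscle and -0.46 (SE 0.06) for Schwann cell genes, and that of *Tyrp1* was -0.54 (SE 0.17) and -0.76 (SE 0.21). *Sox10* was then at -0.09 (SE 0.06) and -0.08 (SE 0.07), and *Mitf* at -0.02 (SE 0.06) and 0.01 (SE 0.07). The fits with a block, left-out libraries or a second covariate use the same level, chosen from these values, and are no test either.

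**Figure D4:**
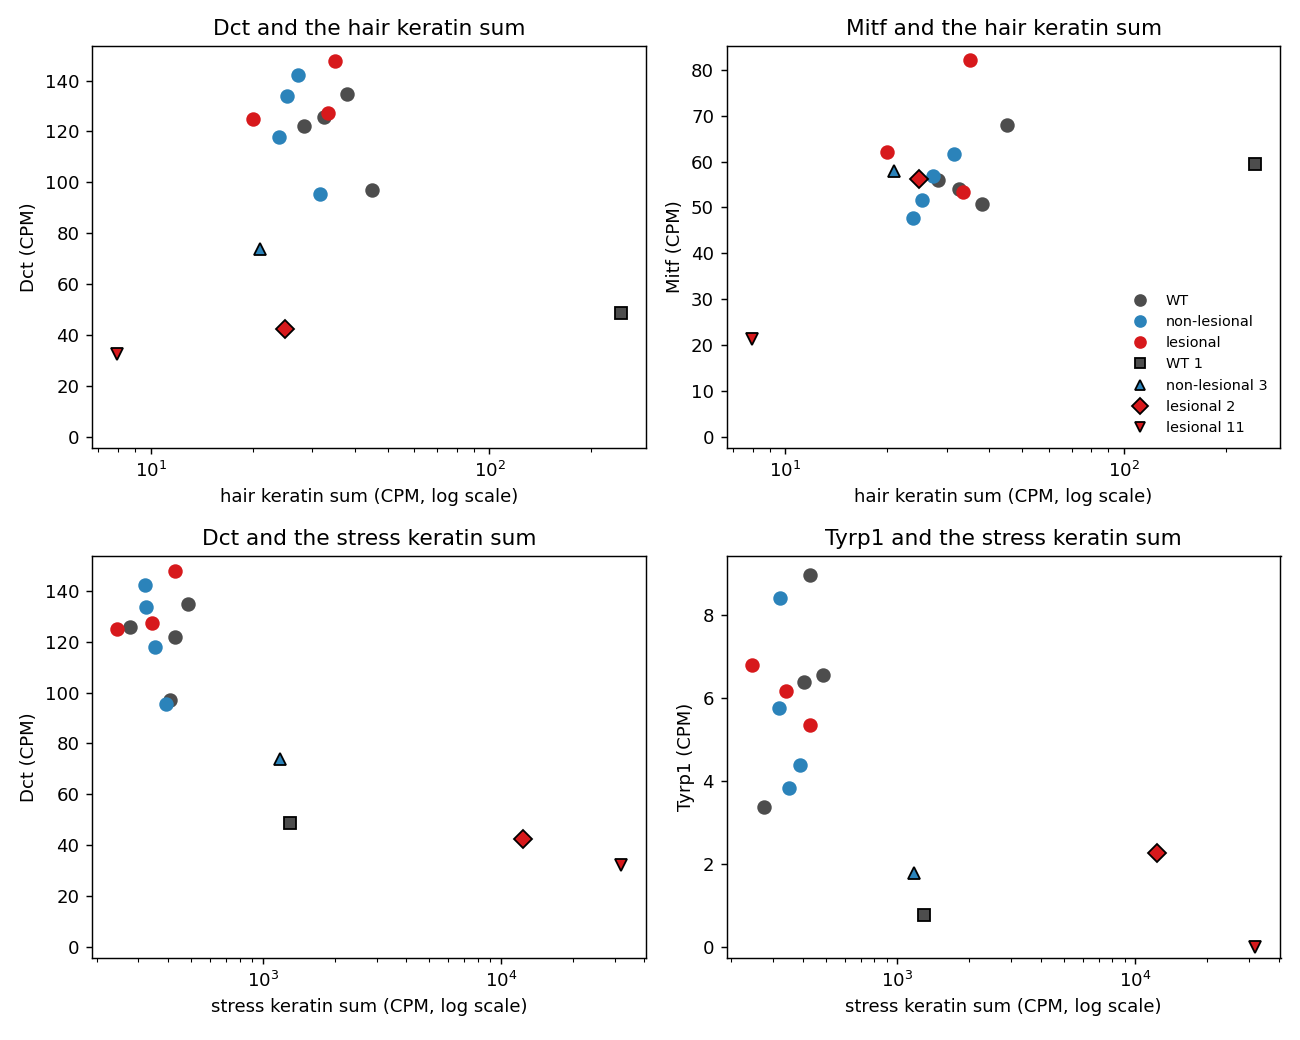
*Dct* and *Mitf* against the summed hair keratins (top) and *Dct* and *Tyrp1* against the summed stress keratins (bottom), in CPM with a log x axis, 1 point per library, coloured by group. WT 1, at 244 CPM of hair keratins, had 48.7 CPM of *Dct*, and the 4 libraries with the most stress keratins had the 4 lowest values of *Dct* and of *Tyrp1*.

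The genes most like each member over the 15 libraries, by Pearson r of log2 CPM among 13461 genes, were mostly not pigment genes. For *Dct* they were *Lgr6*, a gene of hair follicle and epidermal stem cells (r = 0.94), *Naxe* (0.92) and *Chat* (0.91). For *Tyrp1* they were *Fam221b* (0.91), *Fut1* (0.89) and *Dct* itself (0.88). For *Mitf* they were *Thra* (0.92), *Alms1* (0.92) and *B3galt2* (0.92), and for *Sox10* *Acss1* (0.91), *Ramp1* (0.90) and *Thsd1* (0.88). After *Dgka*, *Pmel* was most like *Chl1* (0.95) and *Vsig10l* (0.92). *Mlana* and *Kit* had no gene above 0.84 and 0.82. These points share their libraries, and for *Dct*, *Mitf* and *Sox10* lesional 11 lies at the low end of each.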

How the data were processed

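Skin RNA of 15 libraries was sequenced with QuantSeq 3′. The authors clipped adaptors with cutadapt 2.10, mapped reads with subread-align to GRCm38, retained uniquely mapping reads of high quality with SAMtools and deposited raw counts per gene from featureCounts 2.0.1 over exons. A read counted for every gene it overlapped by at least 20 bases. No strand option was listed, and the annotation release was not given in the sources used here. The study's inclusion limit for RNA quality is stated in 2 conflicting ways, and RNA quality per library was not used. The deposited CPM table was not used. Counts are not independent molecules.

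Counts were fitted with edgeR 4.0.16 in R 4.3.3 (TMM, filterByExpr with a minimum count of 10, robust quasi-likelihood F-test, Benjamini-Hochberg over all genes tested, adjusted p under 0.05), on the 2 groups compared, or over all 15 libraries with group and a marker level (log2 of summed CPM plus 1) for slopes. SE is the absolute log2 value divided by the square root of F. Groups follow the labels. The study counts 5 mice per group, and whether the lesional and non-lesional samples share mice was not given in the sources used here. DESeq2 1.42.0 and limma 3.58.1 (voomWithQualityWeights) were alternatives, as were other normalizations, filters, covariates, a block by sets of consecutive numbers and left-out libraries. Correlation p-values used 100000 resamples. The fits were also run on simulated counts with the same dispersion for every gene, which is simpler than these data. Coordinates and overlaps are from GENCODE vM21 (GRCm38), promoters from RefSeq. Named genes are all 10 members, at most 6 genes of each other list by smallest p on the hair keratin level or highest mean CPM, and the 3 genes most like each member. The members and lists were chosen with earlier results of these data known, and the stress keratin list after their values were seen. Some items of the lists are not reported here.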

Additional observations from a re-analysis of the deposited data

Results flagged for a closer look

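A library was set apart where its gap to the nearest of the other 4 of its group exceeded 0.71 of the range of the group (Dixon's criterion), which chance gives in about 1 of 20 groups. Of 60 values and groups examined, 6 met it, and none of them was the level of a member. WT 1 stood apart with a summed hair keratin level of 244.4 CPM against 45.12 CPM in the next WT library, a summed inner root sheath level of 1283 CPM against 155.7 CPM, and a summed stress keratin level of 1298 CPM against 486.2 CPM. Non-lesional 3 stood apart with a summed stress keratin level of 1176 CPM against 390.4 CPM. WT 1 and non-lesional 3 were also the lowest of their groups in *Dct* and *Tyrp1*, whose slopes on these 3 levels are given above. The level of stress keratins in WT 1 was mostly *Krt6a*. WT 13 had a summed mast cell level of 290.6 CPM against 134.9 CPM, beside a *Kit* level of 12.8 CPM, the highest of the WT libraries. Lesional 14, at 233.4 CPM of mast cell genes, had the lowest *Kit* of all 15 libraries, at 6.81 CPM. Over the 15 libraries *Kit* and the mast cell level had a Pearson r of 0.14. Non-lesional 15 had a summed macrophage level of 622.8 CPM against 512.9 CPM. Lesional 2 and 11 did not meet the criterion for stress keratins, since both were high.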

How the results depend on the processing

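The groups share no replicate number, but the numbers run in 5 sets of 3 with 1 library of each group. Over all genes, deviations from the group mean correlated best with those of the own set in 5 of 5 sets for non-lesional against WT and for lesional against non-lesional, and in 2 of 5 for lesional against WT (r from -0.093 to 0.27), which is a hint from the data, since no source used here says what a set shares. With the set as a replicate block, 0 members were called in each comparison and on the hair keratin level, with medians of -0.07, -0.22, -0.21 and 0.17. It moved the genes called in non-lesional against WT from 0 to 8. Under the block *Mitf* was at -0.085 (lesional against non-lesional), and slopes on the hair keratin level were 0.16 (*Tyrp1*), 0.18 (*Dct*) and 0.0012 (*Pmel*).

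The number of members called stayed at 0 in each comparison between groups under every alternative, and leaving out 1 library gave 0 to 0. On the hair keratin level it was 0, but 1 (*Mitf*, slope 0.76) with the WT libraries left out, where 702 genes were called, and 0 to 1 with 1 library left out, the 1 being *Mitf* without WT 1. The median over the members moved to 0.21 and 0.19 (lesional against WT and against non-lesional) without lesional 2 and 11, and to 0.63 on the hair keratin level without WT libraries. Medians are over the members that passed the filter in each fit, so these are not always the same members. With 1 library left out it ran from -0.12 to 0.05 for non-lesional against WT, from -0.32 to 0.03 for lesional against WT, from -0.27 to 0.00040 for lesional against non-lesional, and from -0.013 to 0.58 on the hair keratin level. The number of members at an unadjusted p under 0.05 was less stable. The fit of all 15 samples gave 1 of 7 for non-lesional and 2 of 7 for lesional against WT. Leaving out lesional 8 or lesional 14 gave 1 of 6 for lesional against WT. The share of all genes at that p was not counted in these fits.

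Signs of uncalled members changed in 38 of 270 values under other settings and in 25 of 285 with 1 library left out; the cause was not tested. Without lesional 2 and 11, lesional against WT gave 0.24 (*Tyrp1*), 0.33 (*Dct*), 0.0017 (*Pmel*) and 0.18 (*Mitf*), and lesional against non-lesional 0.33 (*Tyrp1*), 0.24 (*Dct*), 0.13 (*Pmel*) and 0.019 (*Sox10*). With the hair keratin level as a covariate, *Dct* was at -0.26 (non-lesional against WT), *Mitf* at 0.18 (lesional against WT) and *Pmel* at 0.032 (lesional against non-lesional). With the stress keratin level as a covariate, the medians over the members were 0.09 and 0.13 (lesional against WT and against non-lesional). *Tyrp1* was then at 0.070, *Dct* at 0.22 and *Mitf* at 0.10 against WT, and *Tyrp1* at 0.24, *Dct* at 0.15, *Pmel* at 0.12 and *Kit* at 0.014 against non-lesional. With limma, *Tyrp1* was at 0.055 (non-lesional against WT) and *Kit* at 0.061 (lesional against non-lesional). *Mitf* between lesional and non-lesional was at -0.025 (upper quartile), -0.0012 (no filter), -0.0071 (10 counts in every sample) and -0.00030 (all 15 samples in 1 fit). On the hair keratin level without WT libraries, slopes were 1.42 (*Tyrp1*), 0.93 (*Dct*) and 0.22 (*Pmel*). *Mlana* had slopes of -0.22 (no group term), -0.047 (inner root sheath) and -0.0075 (without *Krt32*), *Sox10* of -0.071 (inner root sheath), -0.024 (mean log2) and -0.028 (without *Krt32*), and *Mitf* of -0.00012 (inner root sheath).

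With 1 library left out, values ran from -0.38 to 0.19 (*Tyrp1*), -0.085 to 0.21 (*Dct*), -0.25 to 0.022 (*Pmel*) and -0.11 to 0.00034 (*Mitf*) for non-lesional against WT. They ran from -0.37 to 0.069 (*Dct*), -0.25 to 0.14 (*Mitf*) and -0.10 to 0.29 (*Kit*) for lesional against WT, and from -0.50 to 0.080 (*Tyrp1*), -0.15 to 0.080 (*Pmel*) and -0.19 to 0.20 (*Mitf*) for lesional against non-lesional. Slopes on the hair keratin level ran from -0.76 to 1.10 (*Tyrp1*), -0.36 to 0.80 (*Dct*), -0.15 to 0.21 (*Pmel*) and -0.013 to 0.26 (*Sox10*). The alternatives without lesional 2 and 11 or without *Krt32*, the replicate block and all fits on or with stress keratins, were chosen after seeing the data. Depth limits *Tyr*, *Slc45a2*, *Oca2*, *Mlana* and *Tyrp1*, at 0 to 21 counts per library.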
